A study of Danio rerio with 12 samples.

Results

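The genes described here are grouped as surface epithelium genes of the zebrafish embryo. They were chosen by name, with earlier results of these data known, and with every probe set annotated to them. They are the keratin genes *krt4*, *krt5*, *krt8* and *krt18a.1*, the transport genes *aqp3a*, *atp1b1a* and *abca12*, and the cytoskeletal genes *tagln2* and *pfn1*. All 9 genes were found, by 10 probe sets, 2 of them for *atp1b1a*, out of 15502 probe sets and 8793 genes with a single symbol. No filter on low signal was applied, so that all 10 probe sets were tested.

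The study asked what the B1 *sox* transcription factors regulate in the early embryo. In QKD embryos (quadruple knockdown), 8 translation-blocking morpholino oligonucleotides, 2 for each of *sox2*, *sox3*, *sox19a* and *sox19b*, had been injected at the 1-cell stage, at 0.9 ng each and 7.2 ng in all. They were compared with uninjected WT embryos of the same TL strain at 3 stages, abbreviated 30%E and 75%E for the share of the yolk covered in epiboly and TB for tailbud, the end of gastrulation. Each of the 6 groups had 2 arrays, 12 in all, of RNA from whole embryos, which the labels number at 100 per sample and the methods at 40 to 100. No array of embryos injected with a control morpholino was used here, so that injection and knockdown cannot be told apart on the arrays. Outside the arrays, the study reported no abnormal development with mismatch control morpholinos and a rescue of QKD embryos by coinjected B1 *sox* mRNA. The study described QKD embryos as slower in epiboly, and whether their arrays were staged by clock or by form is not given in the sources used here.

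The surface of the early zebrafish embryo is made by the enveloping layer, a flat and tightly sealed epithelium that spreads over the yolk during epiboly and later becomes the outer skin layer, the periderm. Type I and type II keratins pair into the filaments that stiffen such a sheet, pumps and channels keep its water and salt balance, and actin-binding proteins shape its cells and their borders. The epidermis beneath it arises from ventral ectoderm under Bmp signaling, on the side opposite to the neural plate that expresses B1 *sox* genes.

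Signals are RMA values, a background-corrected summary of the short probes of a set on a linear scale with no unit. The median signal per array lay between 73.3 and 76.1, the lower quartile between 20.5 and 24.0, and the upper quartile between 272 and 319. Differences are QKD minus WT in log2 units, from limma fitted to all 12 arrays, and a call means a Benjamini-Hochberg adjusted p under 0.05 over all 15502 probe sets. Because same-numbered QKD and WT arrays of a stage deviated together (correlations of 0.615, 0.443 and 0.488 at 30%E, 75%E and TB), a second fit took same-numbered arrays of each stage as pairs (the replicate block). Its adjusted p is given wherever it changes the call of 1 of the 9 genes. For other named genes it is given at some stages only, so its absence there does not mean that both fits gave the same call. In whole embryos, fewer surface cells, less RNA per cell and a change in other tissues that carry these transcripts cannot be told apart. Nor can a lag of QKD embryos in stage, since how the embryos of the arrays were staged is not given.

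At 30%E, 5 of the 10 probe sets were called lower in QKD embryos and 0 higher, where 2.92% of all probe sets were called lower and 5.14% higher. These 5 were *pfn1*, both *atp1b1a* probe sets, *aqp3a* and *krt5*. At 75%E, 3 were called lower (*pfn1*, *tagln2* and *abca12*) and 0 higher, against 3.90% and 4.49% of all probe sets. At TB, 2 were called lower (*pfn1* and *tagln2*) and 0 higher, against 3.21% and 3.15%. With the replicate block, 9, 5 and 5 were called lower at 30%E, 75%E and TB and 0 higher, where the same fit called 5.23%, 7.80% and 6.34% of all probe sets lower and 9.02%, 9.11% and 7.26% higher. The median difference of the 10 was -1.16 at 30%E, -0.46 at 75%E and -0.32 at TB, and that of all probe sets was -0.03, -0.02 and 0.01. Since the genes were chosen with earlier results of these data known, these shares and medians describe the 10 probe sets and are no test.

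**Figure D1:**
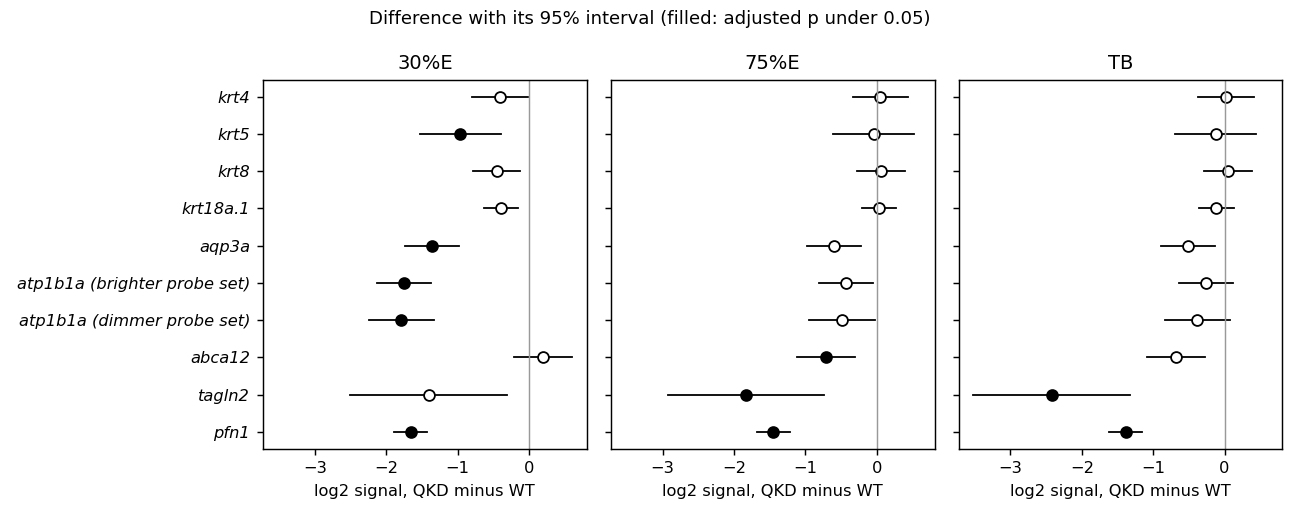
Difference of log2 signal, QKD minus WT, on the x axis for each of the 10 probe sets at 30%E, 75%E and TB, with its 95% interval from limma over 12 arrays (n = 2 per group). Filled points have an adjusted p under 0.05: 5 at 30%E, 3 at 75%E and 2 at TB, all below 0. The 4 keratin genes lie near 0 at 75%E and TB, whereas *pfn1* and *tagln2* stay below -1 at every stage.

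*pfn1* encodes a profilin, which binds actin monomers and feeds them to growing filaments. At 30%E its signal was 486 and 476 in QKD embryos, against 1667 and 1383 in WT embryos. The 75%E arrays gave 1486 and 1471 in QKD embryos, against 4062 and 4007 in WT embryos. At TB it was 1662 and 1792 in QKD embryos, against 4469.8 and 4543 in WT embryos. Both QKD arrays lay below both WT arrays at every stage, and the 2 QKD arrays at 75%E lay between the 2 WT arrays of 30%E. *pfn1* was 3.16-fold lower at 30%E (log2 difference -1.66 ± 0.11 SE, limma adjusted p = 5.49e-06), 2.73-fold lower at 75%E (-1.45 ± 0.11, adjusted p = 1.22e-05) and 2.61-fold lower at TB (-1.38 ± 0.11, adjusted p = 1.96e-05). Its call held at all 3 stages when any of the 12 arrays was left out.

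*tagln2* encodes transgelin 2, an actin-bundling protein of the calponin family. Its signal at 30%E was 63.5 and 51.6 in QKD embryos, against 159 and 144 in WT embryos. On the 75%E arrays it was 104 and 384 in QKD embryos, against 606 and 839 in WT embryos, and at TB it was 191 and 436 in QKD embryos, against 1391 and 1722 in WT embryos. The groups did not overlap at any stage, but at 75%E and TB the QKD arrays differed from each other more than for any other of the 10 probe sets, by 1.88 and 1.19 in log2, with replicate 1 the lower. The difference was -2.42 ± 0.50 at TB (5.36-fold lower, adjusted p = 0.0136) and -1.83 ± 0.50 at 75%E (3.56-fold lower, adjusted p = 0.0455), and at 30%E it was -1.41 ± 0.50 without passing the test (adjusted p = 0.135, or 0.00841 with the replicate block).

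The size of the *tagln2* difference rested on single arrays. Without QKD 75%E replicate 1 it was -0.89 at 75%E (adjusted p = 0.270), and the call at 75%E was lost in 9 of the 12 fits that each left out 1 array. Without QKD TB replicate 1 it was -1.83 at TB (adjusted p = 0.130), and that call was also lost without either WT TB array (adjusted p = 0.0598 and 0.0943). The call at 30%E was gained without either QKD 75%E array (adjusted p = 0.0229).

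**Figure D2:**
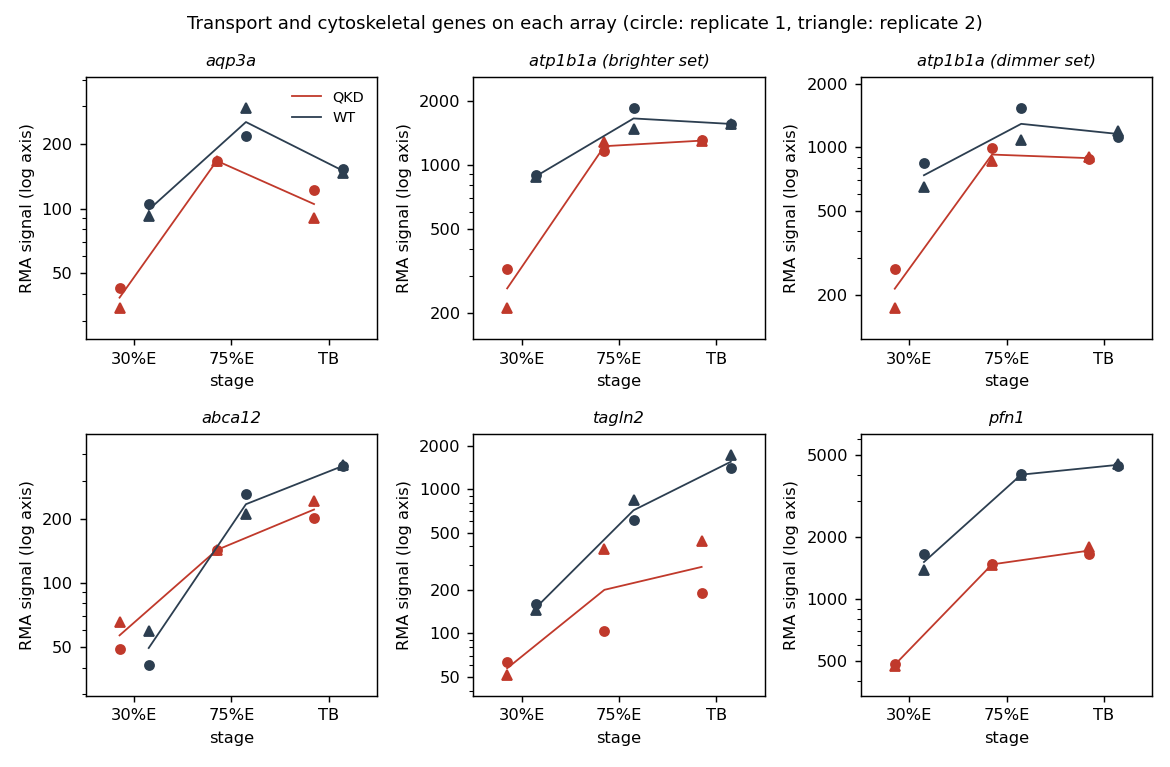
RMA signal on a log axis for the transport genes *aqp3a*, *atp1b1a* (both probe sets) and *abca12* and the cytoskeletal genes *tagln2* and *pfn1* at 30%E, 75%E and TB. Points are single arrays, QKD left of WT at each stage, and lines join the geometric means of the 2 arrays. *pfn1* and *tagln2* stay apart between QKD and WT at all 3 stages, *atp1b1a* is farthest apart at 30%E, and *abca12* overlaps at 30%E only.

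*atp1b1a* encodes a beta subunit of the Na,K-ATPase, the pump that exports sodium and imports potassium and whose beta subunit also takes part in cell adhesion. On its brighter probe set the signal at 30%E was 323 and 212 in QKD embryos, against 892 and 877 in WT embryos. At 75%E it was 1163 and 1284 in QKD embryos, against 1844 and 1477 in WT embryos, and at TB it was 1303 and 1293 in QKD embryos, against 1559.5 and 1551 in WT embryos. The groups did not overlap at any stage, and their distance was widest at 30%E. The brighter probe set was 3.38-fold lower at 30%E (-1.76 ± 0.17, adjusted p = 0.000115), and its differences of -0.43 ± 0.17 at 75%E (adjusted p = 0.167) and -0.26 ± 0.17 at TB (adjusted p = 0.516) did not pass the test.

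The dimmer *atp1b1a* probe set gave the same order of groups. Its signal at 30%E was 264 and 173 in QKD embryos, against 837 and 648 in WT embryos. The values at 75%E were 989.6 and 861 in QKD embryos, against 1534 and 1085 in WT embryos, and at TB it was 875 and 900.4 in QKD embryos, against 1123 and 1188 in WT embryos. Here too the QKD arrays lay below the WT arrays at each stage. This probe set was 3.45-fold lower at 30%E (-1.79 ± 0.21, adjusted p = 0.00036), with differences of -0.48 ± 0.21 at 75%E (adjusted p = 0.208, or 0.0114 with the replicate block) and -0.38 ± 0.21 at TB (adjusted p = 0.401, or 0.0387 with the block). The call at 30%E held for both probe sets with any array left out.

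*aqp3a* encodes an aquaglyceroporin, a channel for water and glycerol that in mammals is found in the skin. Its signal at 30%E was 42.8 and 34.6 in QKD embryos, against 105 and 92.8 in WT embryos. At 75%E it was 167 on both QKD arrays, against 219 and 293 in WT embryos, and at TB it was 123 and 90.1 in QKD embryos, against 154 and 146 in WT embryos. QKD arrays were the lower ones throughout, with no overlap. *aqp3a* was 2.57-fold lower at 30%E (-1.36 ± 0.17, adjusted p = 0.000609), a call that held with any array left out. At 75%E the difference was -0.60 ± 0.17 (adjusted p = 0.0577, or 0.00949 with the replicate block) and at TB it was -0.51 ± 0.17 (adjusted p = 0.121, or 0.0236 with the block). The difference at 75%E passed the test without WT 75%E replicate 1 (-0.81, adjusted p = 0.0294) and without either QKD TB array (adjusted p = 0.0413).

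*abca12* encodes a lipid transporter that in human skin loads the lipids of the water barrier. Its signal at 30%E was 49.0 and 65.5 in QKD embryos, against 41.3 and 59.1 in WT embryos, and the groups overlapped. Later, at 75%E, it was 142 and 143 in QKD embryos, against 259.8 and 209.7 in WT embryos, and at TB it was 202 and 240.4 in QKD embryos, against 351 and 356 in WT embryos. The arrays thus gave no order of the groups at 30%E, where the sign of the difference could change when 1 array was left out. At the later stages both QKD arrays were the lower ones. The difference was 0.20 ± 0.19 at 30%E (95% interval -0.21 to 0.60, adjusted p = 0.709), -0.71 ± 0.19 at 75%E (1.64-fold lower, adjusted p = 0.0376) and -0.68 ± 0.19 at TB (1.60-fold lower, adjusted p = 0.0549, or 0.00244 with the replicate block). Leaving out QKD 75%E replicate 1 or 2 ended the call at 75%E (adjusted p = 0.148 and 0.158), as did leaving out WT 75%E replicate 1 (-0.56, adjusted p = 0.166) or 1 of the WT TB arrays (adjusted p = 0.0542). At TB the difference passed the test without any single 30%E array and without either WT 75%E array (adjusted p between 0.0309 and 0.0484).

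*krt5* encodes a type II keratin of surface epithelia. Its signal at 30%E was 605 and 305 in QKD embryos, against 1014 and 693 in WT embryos. At 75%E it was 4672 and 4689 in QKD embryos, against 4856 and 4785 in WT embryos, and at TB it was 5486 and 5253 in QKD embryos, against 6244 and 5486 in WT embryos. QKD arrays were the lower ones at 30%E and, by a small margin, at 75%E, whereas replicate 1 of QKD and replicate 2 of WT nearly coincided at TB. *krt5* was 1.95-fold lower at 30%E (-0.96 ± 0.26, adjusted p = 0.0427), and the difference was -0.04 ± 0.26 at 75%E (95% interval -0.61 to 0.52) and -0.12 ± 0.26 at TB (-0.69 to 0.44). The call at 30%E was lost in 10 of the 12 fits that left out 1 array, among them those without QKD 30%E replicate 2 (-0.47, adjusted p = 0.328) and without WT 30%E replicate 1 (-0.69, adjusted p = 0.317). In the other 8 the difference stayed at -0.96 and the adjusted p lay between 0.0527 and 0.0637.

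*krt4* encodes another type II keratin, widely used as a marker of the enveloping layer and outer skin. Its signal at 30%E was 1998 and 1268 in QKD embryos, against 2307 and 1928 in WT embryos. The 75%E arrays gave 6726 and 7254 in QKD embryos, against 6469 and 7048 in WT embryos, and at TB it was 7926 and 7856 in QKD embryos, against 7983 and 7572 in WT embryos. The groups overlapped at all 3 stages. The difference was -0.41 ± 0.18 at 30%E (adjusted p = 0.247, or 0.029 with the replicate block), 0.05 ± 0.18 at 75%E (95% interval -0.34 to 0.44) and 0.02 ± 0.18 at TB (-0.37 to 0.41). At 30%E it was -0.73 and passed the test without QKD 30%E replicate 1 (adjusted p = 0.0121).

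*krt8* and *krt18a.1* encode a type II and a type I keratin that pair in simple epithelia. For *krt8* the signal at 30%E was 2658 and 1937 in QKD embryos, against 3544 and 2727 in WT embryos. The values at 75%E were 10882 and 11115 in QKD embryos, against 10505 and 10683 in WT embryos, and at TB it was 10644 and 10674 in QKD embryos, against 10224 and 10452 in WT embryos. QKD arrays lay below WT arrays at 30%E and slightly above them at 75%E and TB. At both later stages the 95% interval spanned 0, and the sign at 75%E changed when the signals were quantile-normalized a second time. These signals, like those of the other keratin members at 75%E and TB, lay far above the upper quartile of the arrays. The highest signals of the arrays were 17710 to 22045. Whether signals this high follow the amount of RNA in proportion was not tested. The *krt8* difference was -0.45 ± 0.15 at 30%E (adjusted p = 0.109, or 0.00535 with the replicate block), 0.05 ± 0.15 at 75%E (95% interval -0.28 to 0.39) and 0.04 ± 0.15 at TB (-0.29 to 0.38). Without QKD 30%E replicate 1 the difference at 30%E was -0.68 and passed the test (adjusted p = 0.0257).

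For *krt18a.1* the signal at 30%E was 3098 and 2562 in QKD embryos, against 3681 and 3703 in WT embryos. At 75%E it was 6311 and 6724 in QKD embryos, against 6117 and 6631 in WT embryos, and at TB it was 5927 and 5954 in QKD embryos, against 6591 and 6269 in WT embryos. QKD arrays were below WT arrays at 30%E and TB, and the groups overlapped at 75%E. The difference was -0.39 ± 0.11 at 30%E (adjusted p = 0.052, or 0.0226 with the replicate block), 0.03 ± 0.11 at 75%E (95% interval -0.21 to 0.27) and -0.11 ± 0.11 at TB (-0.35 to 0.13). It passed the test at 30%E without QKD 30%E replicate 1 (-0.53, adjusted p = 0.0287) and without either WT 75%E array (adjusted p = 0.048).

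**Figure D3:**
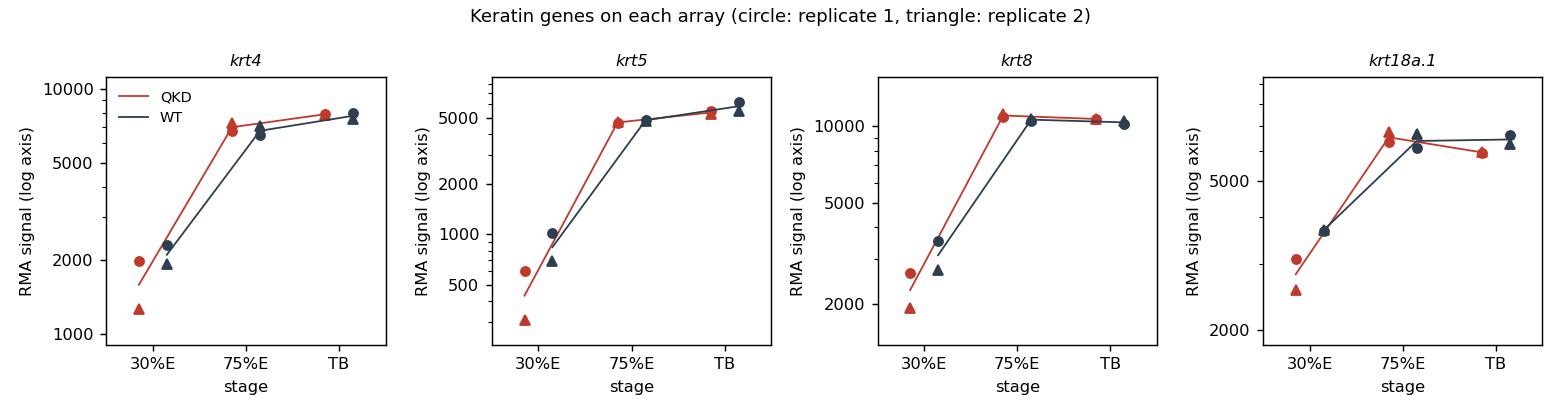
RMA signal on a log axis for the keratin genes *krt4*, *krt5*, *krt8* and *krt18a.1* at 30%E, 75%E and TB. Points are single arrays, QKD left of WT at each stage, and lines join the geometric means of the 2 arrays. At 30%E both QKD points lie below both WT points for *krt5*, *krt8* and *krt18a.1* and overlap them for *krt4*, QKD replicate 2 is the lowest of the 4 arrays for each gene, and at 75%E and TB the QKD and WT points of each gene lie close together.

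Counted over arrays, both QKD arrays lay below both WT arrays for 8 of the 10 probe sets at 30%E, 7 at 75%E and 7 at TB, where 26.9%, 25.1% and 21.5% of all probe sets did so. Both lay above for 0, 1 and 1 of them (*krt8* at the later stages), against 22.7%, 21.7% and 25.7% of all probe sets. The 30%E arrays of one group also differed from each other in these genes. Replicate 1 was higher than replicate 2 for 9 of the 10 probe sets in QKD embryos, by a median of 0.38 in log2, and for 8 of 10 in WT embryos, by a median of 0.22, whereas the median over all probe sets was 0.01 in either group. The part of this gap in the differences at 30%E was not tested beyond the replicate block and the fits without each array.

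From 30%E to 75%E, all 10 probe sets were called higher in QKD embryos and all 10 in WT embryos, where 30.9% and 30.2% of all probe sets were called higher and 29.4% and 27.0% lower. With 1 array left out, 2 of these calls were lost, that of *tagln2* in QKD embryos without QKD 75%E replicate 2 (adjusted p = 0.0832), and that of the dimmer *atp1b1a* probe set in WT embryos without WT 30%E replicate 2 or WT 75%E replicate 1 (adjusted p = 0.0616 and 0.0651). *krt5* gained the most of the 10 in both, 10.9-fold in QKD embryos and 5.75-fold in WT embryos. The other keratin genes gained 4.39-fold (*krt4*), 4.85-fold (*krt8*) and 2.31-fold (*krt18a.1*) in QKD embryos, against 3.20-fold, 3.41-fold and 1.73-fold in WT embryos. *aqp3a* gained 4.35-fold in QKD embryos and 2.57-fold in WT embryos, and *pfn1* 3.07-fold in QKD embryos and 2.66-fold in WT embryos. The brighter and dimmer *atp1b1a* probe sets gained 4.67-fold and 4.32-fold in QKD embryos, against 1.87-fold and 1.75-fold in WT embryos. For *abca12* the gain was 2.51-fold in QKD embryos and 4.72-fold in WT embryos, and for *tagln2* it was 3.50-fold in QKD embryos and 4.70-fold in WT embryos. The order for *tagln2* rested on 1 array, since the QKD gain minus the WT gain was -0.43 in log2 and 0.51 without QKD 75%E replicate 1.

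**Figure D4:**
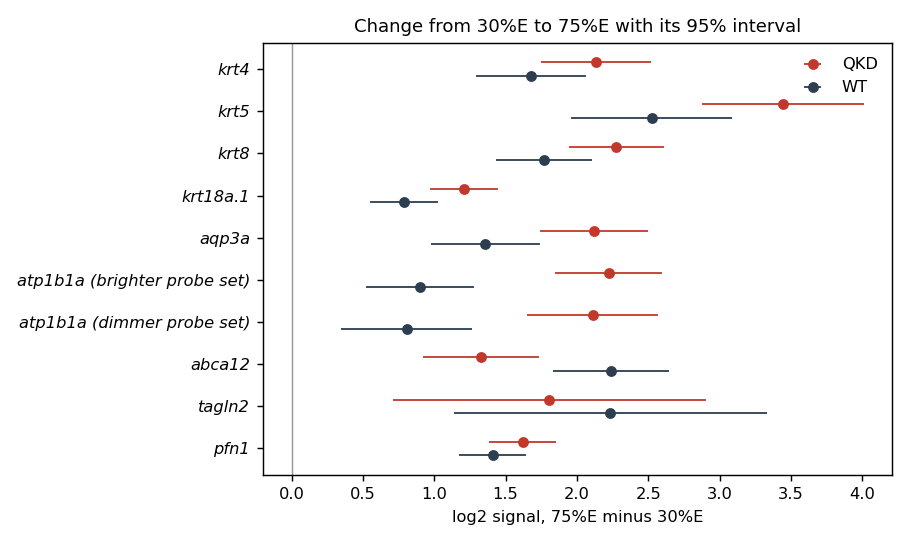
Change of log2 signal from 30%E to 75%E on the x axis for each of the 10 probe sets, in QKD embryos (upper point of each pair) and WT embryos (lower point), with 95% intervals from limma over 12 arrays. All changes lie above 0. The intervals of QKD and WT embryos are separate for both *atp1b1a* probe sets and for *abca12*, with QKD the higher for *atp1b1a* and WT the higher for *abca12*.

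Whether the QKD difference itself changed between stages was tested as the difference of the 2 differences in the same fit. From 30%E to 75%E it was called for 2 of the 10 probe sets, both of *atp1b1a*, where 2.08% of all probe sets were called in that direction and 2.48% in the other. It was 1.32 ± 0.24 for the brighter probe set (adjusted p = 0.0115) and 1.30 ± 0.30 for the dimmer one (adjusted p = 0.0311), so that the deficit of QKD embryos was smaller at 75%E. The call of the brighter probe set held with any array left out, and that of the dimmer one was lost in 5 of the 12 fits (adjusted p up to 0.123). From 30%E to TB the same 2 were called, with 1.50 ± 0.24 (adjusted p = 0.00563) and 1.41 ± 0.30 (adjusted p = 0.0185), where 2.34% of all probe sets were called in that direction and 3.40% in the other, and again the call of the dimmer one alone was lost, in 5 of the 12 fits (adjusted p up to 0.0794). With the replicate block, 6 of the 10 were called in each of these tests, both *atp1b1a* probe sets, *aqp3a*, *krt5* and *krt8* upward and *abca12* downward, where that fit called 5.39% and 5.60% of all probe sets upward and 6.71% and 6.99% downward.

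For *krt5* the difference of differences from 30%E to 75%E was 0.92 ± 0.36 (adjusted p = 0.213, or 0.00554 with the block), and for *krt8* it was 0.51 ± 0.22 (adjusted p = 0.250, or 0.0229 with the block). For *aqp3a* it was 0.76 ± 0.25 (adjusted p = 0.118, or 0.0219 with the block). For *abca12* it ran the other way, -0.91 ± 0.26 (adjusted p = 0.0814, or 0.00458 with the block). *pfn1* had 0.21 ± 0.15 (95% interval -0.12 to 0.54) and *tagln2* -0.43 ± 0.71 (-1.98 to 1.13), neither called by either fit. From 30%E to TB the values were 0.84 for *krt5* (adjusted p = 0.257, or 0.00763 with the block), 0.50 for *krt8* (0.254, or 0.0235), 0.85 for *aqp3a* (0.0731, or 0.0126) and -0.88 for *abca12* (0.0832, or 0.00487). Without QKD 30%E replicate 1, *krt4* and *krt5* were called as well, with 0.78 and 1.41 from 30%E to 75%E (adjusted p = 0.0476 and 0.0149), and without WT 30%E replicate 2 *abca12* was called, with -1.17 (adjusted p = 0.0392). From 30%E to TB, *aqp3a* was called without QKD TB replicate 2 or either WT 75%E array (adjusted p = 0.0460 and 0.0453).

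From 75%E to TB, *abca12* was called higher and *aqp3a* lower, in QKD embryos (1.55-fold higher and 1.59-fold lower), and in WT embryos (1.51-fold higher and 1.69-fold lower). The adjusted p was 0.0316 for *abca12* and 0.0173 for *aqp3a* in QKD embryos, against 0.0325 and 0.00716 in WT embryos. In QKD embryos the call of *abca12* was lost without any 1 of the 4 QKD arrays of these stages (adjusted p up to 0.178), and that of *aqp3a* without either QKD 75%E array or QKD TB replicate 2 (up to 0.144). In WT embryos the call of *abca12* was lost without WT 75%E replicate 2 or either WT TB array (up to 0.180), and that of *aqp3a* without WT 75%E replicate 2 (0.0590). The other 8 probe sets were not called in either, where 12.1% of all probe sets were called higher and 10.2% lower in QKD embryos and 14.1% and 13.7% in WT embryos. The QKD difference was not called to change between 75%E and TB for any of the 10, by limma with or without the replicate block, and 0 of them had an unadjusted p under 0.05. Of all probe sets, 0.213% were called upward and 0.464% downward in this test, and 1.16% and 1.70% with the block. For *tagln2* the change of the QKD difference was -0.59 (95% interval -2.14 to 0.96), and its signal in WT embryos at TB was 2.17 times that at 75%E (adjusted p = 0.125).

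The counts for this and the later lists stand against the shares over all probe sets at 30%E, 75%E and TB. Of all probe sets, 2.92%, 3.90% and 3.21% were called lower and 5.14%, 4.49% and 3.15% higher. With the replicate block these shares were 5.23%, 7.80% and 6.34% lower and 9.02%, 9.11% and 7.26% higher. Other keratin genes were read from a list of 19, of which 11 were measured. At 30%E, 1 was called lower in QKD embryos and 0 higher, and at 75%E and TB 0 were called lower and 1 higher. With the replicate block, 3, 1 and 2 were called lower and 0, 1 and 1 higher at the 3 stages. *krt17* was the one called lower at 30%E, with 51.2 and 53.1 in QKD embryos against 132.7 and 89.8 in WT embryos (2.09-fold lower, adjusted p = 0.0328). At 75%E it had 966 and 1623 in QKD embryos against 1846 and 2871 in WT embryos (adjusted p = 0.0732, or 0.0017 with the block), and at TB 1859 and 2229 against 3468 and 4319.9 (adjusted p = 0.0716, or 0.00146 with the block). *krt94* was the one called higher, with 141 and 66.8 in QKD embryos against 32.2 and 33.5 in WT embryos at 75%E (2.96-fold, adjusted p = 0.00362), and 110.5 and 85.4 against 32.2 and 30.3 at TB (3.11-fold, adjusted p = 0.00313).

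*krt97* and *krt99*, shown for their signal after the values were seen, were not called at any stage without the block. *krt99* had 78.2 and 31.4 in QKD embryos against 115 and 78.2 in WT embryos at 30%E (adjusted p = 0.118, or 0.00227 with the block), and 1375 and 1315 against 1420 and 1312 at 75%E. *krt97* had 4829 and 4557 in QKD embryos against 6763 and 6657 in WT embryos at TB (-0.52, adjusted p = 0.140, or 0.0047 with the block), and the block also called it at 30%E (-0.50, adjusted p = 0.00431, against 0.144 without it). The median difference over the 11 genes was -0.11, -0.11 and -0.09 at the 3 stages.

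**Figure D5:**
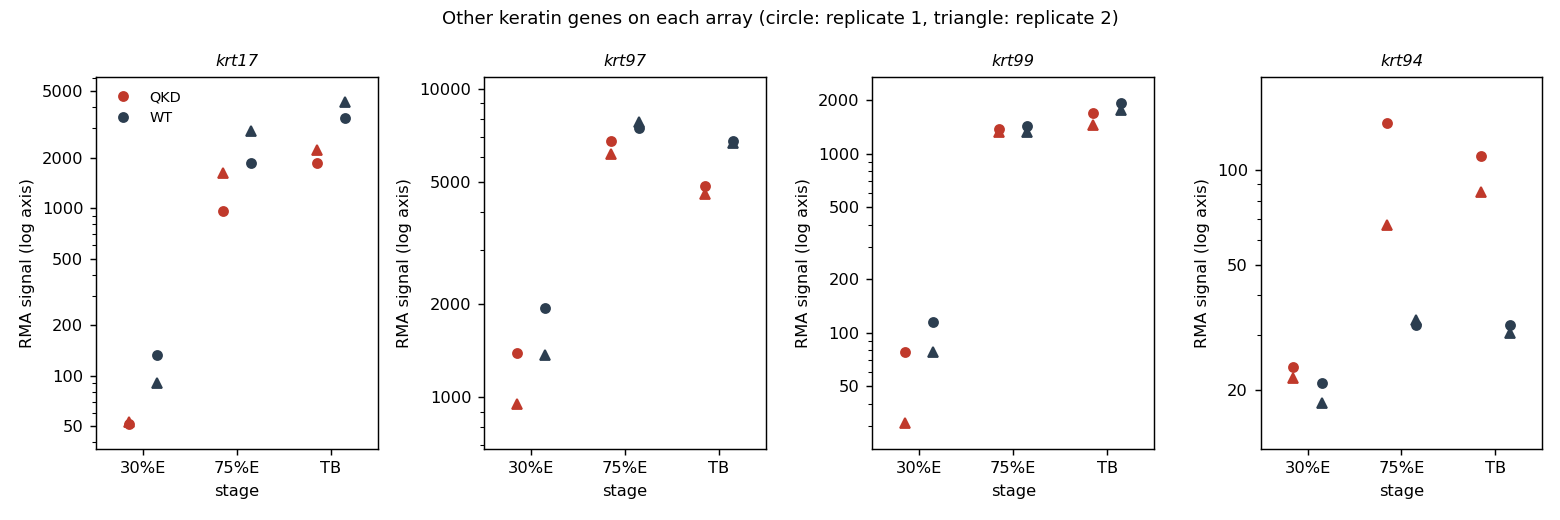
RMA signal on a log axis for *krt17*, *krt97*, *krt99* and *krt94* on each array at 30%E, 75%E and TB, QKD left of WT at each stage. *krt17* lies lower on the QKD arrays at all 3 stages and was called at 30%E alone without the replicate block. *krt94* lies higher on the QKD arrays at 75%E and TB and stays below 150 on every array.

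Markers of the enveloping layer and periderm other than the 9 genes were called in both directions at each stage. Of 22 measured from a list of 30, 6 were called lower and 2 higher in QKD embryos at 30%E, 2 lower and 1 higher at 75%E, and 3 lower and 1 higher at TB. With the replicate block these counts were 9 and 3, 4 and 4, and 6 and 3. The largest decreases at 30%E were those of *grhl1*, a Grainyhead transcription factor of epithelia (47.0 and 62.3 in QKD embryos, 142 and 157 in WT embryos, lowest first, 2.76-fold lower, adjusted p = 0.000683), of *pkp3a*, which encodes the desmosomal plakophilin 3 (2.36-fold lower, adjusted p = 0.0107), and of *krt17*, which stands on the list of keratins too. *klf17*, a Krüppel-like factor, was lower at all 3 stages, 1.68-fold, 1.52-fold and 1.35-fold. The 2 called higher at 30%E were *klf6a*, named after its values were seen (1.44-fold, adjusted p = 0.0258), and *ppl* (1.30-fold, adjusted p = 0.0465). The 1 called higher at 75%E and at TB was *spint1a* (1.33-fold and 1.30-fold). At 75%E and TB *grhl1* and *pkp3a* were not called, save *pkp3a* at TB with the block, where it was higher (0.38, adjusted p = 0.0223). The summed signal of the 22 genes was 8707 to 9217 in QKD embryos and 10388 to 11181 in WT embryos at 30%E, 23710.4 to 24776 and 23386 to 24195 at 75%E, and 24977 to 25313 and 27194 to 27767 at TB.

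Transcription factors and Bmp targets of ventral and epidermal ectoderm were read from a list of 20. Of 16 measured, 8 were called lower and 1 higher at 30%E, 10 lower and 0 higher at 75%E, and 12 lower and 0 higher at TB, with medians of -0.63, -0.70 and -0.86. Over all probe sets, 2.92%, 3.90% and 3.21% were called lower and 5.14%, 4.49% and 3.15% higher. With the block, 10, 12 and 12 were called lower and 1, 0 and 0 higher. *tfap2c*, an AP-2 factor, had 21.1 and 26.2 in QKD embryos against 146 and 161 in WT embryos at 30%E, lowest first. These QKD values lay near the lower quartile of the arrays, which limits the fold at 30%E. *tfap2c* was 6.52-fold, 4.86-fold and 6.10-fold lower at the 3 stages. *dlx3b*, a homeobox gene of the neural plate border, was 5.93-fold lower at 75%E and 3.32-fold at TB. *tp63*, the p53 relative required for epidermal proliferation, was 2.21-fold lower at 75%E and 4.49-fold at TB, with 56.6 and 72.0 in QKD embryos against 265 and 309.9 in WT embryos at TB. *klf2b*, another Krüppel-like factor, was 1.83-fold higher at 30%E and 4.78-fold lower at 75%E. *grhl1*, *klf17* and *gata3* stand on both this list and the preceding one.

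Genes of epithelial junctions were mostly not called. Of 25 measured from a list of 30, 2 were called lower and 1 higher at 30%E, 1 lower and 2 higher at 75%E, and 2 lower and 2 higher at TB. With the block these counts were 5 and 3, 1 and 7, and 4 and 4. The 3 called at 30%E, *pkp3a*, *evpla* and *ppl*, are also on the list of the enveloping layer. Those called at TB were the claudin genes *cldni* (adjusted p = 0.000277), *cldng* (2.02-fold lower), *cldn3d* (2.63-fold higher) and *cldn3c* (higher, adjusted p = 0.0371). *cldn3c* had 27.1 and 35.0 in QKD embryos and 18.7 and 22.4 in WT embryos at TB, lowest first. Its WT values lay near the lower quartile of the arrays, and no fold is given. *cldni* had 9.66 and 10.1 in QKD embryos and 63.8 and 226 in WT embryos at TB, lowest first, and lay between 8.05 and 11.5 on every array of the earlier stages, so that its QKD values at TB were below the lower quartile of the arrays and no fold is given. *cdh1*, E-cadherin, and *epcam*, an epithelial adhesion molecule, named after their values were seen, were not called at any stage (*cdh1* 0.06, 0.29 and -0.20, *epcam* 0.09, 0.17 and -0.13), save *cdh1* at 75%E with the block (adjusted p = 0.0493, against 0.0831 without it).

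Among the relatives of *atp1b1a*, 13 were measured of 17 Na,K-ATPase subunits and partners. None was called at 30%E by limma, 1 was called lower and 2 higher at 75%E, and 0 lower and 2 higher at TB. With the block, 0, 2 and 1 were called lower and 0, 2 and 2 higher. *atp1b3a*, another beta subunit, had 611 and 741 in QKD embryos against 1009.7 and 1009.8 in WT embryos at 75%E, lowest first (1.50-fold lower, adjusted p = 0.0194). *atp1a1b*, an alpha subunit, was 2.44-fold higher at 75%E and 2.09-fold at TB. Of the list of 27 aquaporins, ABC transporters and others, 9 were measured, and 1 was called lower at 30%E, 3 lower at 75%E and 1 higher at TB, among them *aqp8a.1* at no more than 21.2 on any array of the 2 stages at which it was called.

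Among the relatives of *pfn1* and *tagln2*, 31 were measured of 46 actin regulators, with 3 called lower and 1 higher at 30%E, 1 lower at 75%E and 2 lower at TB. With the block these counts were 4 lower and 2 higher, 1 and 5, and 3 and 4. *tmsb1*, a thymosin that holds actin monomers, had 325 and 359 in QKD embryos against 689 and 694 in WT embryos at 30%E, lowest first (2.02-fold lower, adjusted p = 0.000398), and was not called at the later stages, save at 75%E with the block (0.37, adjusted p = 0.0196). *lcp1*, the actin bundler L-plastin, was 1.86-fold lower and *cnn2*, a calponin, 1.63-fold lower at 30%E. *cnn2* was called lower at TB too (1.44-fold, adjusted p = 0.021). With the block alone, *lcp1* was called lower at TB (1.52-fold, adjusted p = 0.00285, against 0.137 without it). *tagln3b*, the transgelin gene of neurons in mammals, had 16.4 and 18.2 in QKD embryos against 90.4 and 112 in WT embryos at TB (adjusted p = 5.94e-07). Its QKD values there were below the lower quartile of the arrays, and no fold is given. The profilin genes *pfn2a* and *pfn2b* and the actin genes *actb1* and *actb2*, named after their values were seen, were not called at any stage without the block. With the block, *pfn2a* was called higher at 75%E (adjusted p = 0.0249) and *pfn2b* at 30%E (adjusted p = 0.0417). *pfn2a* differed by 0.16, 0.36 and 0.03 and *actb2* by -0.02, -0.02 and -0.12 at the 3 stages.

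Markers of other tissues were read as well, and their part in the results above was not tested. At 30%E, 75%E and TB, 2.92%, 3.90% and 3.21% of all probe sets were called lower and 5.14%, 4.49% and 3.15% higher. Of 12 neural ectoderm markers measured out of 14, 3 were called lower and 1 higher at 30%E and 6 lower and 3 higher at 75%E and at TB, with medians of 0.00, -0.48 and -0.37. With the block, 3, 6 and 6 were called lower and 2, 3 and 3 higher. The 3 called higher at the later stages were *sox2*, *sox3* and *sox19a*, which the morpholinos target. At 30%E, *sox3* was the 1 called higher without the block, whereas *sox2* was among the 3 called lower. There *sox2* had 35.5 and 51.5 in QKD embryos against 82.0 and 82.2 in WT embryos, lowest first (1.92-fold lower, adjusted p = 0.00182). *sox3*, named like *sox19a*, *six3a* and *otx2a* after its values were seen, had 7089 and 7548 in QKD embryos against 2249.5 and 2735 in WT embryos at 75%E, and *sox2* 3328 and 3347 against 697 and 705, lowest first, and *sox19a* 3069.7 and 3192 against 2058 and 2340 (adjusted p = 0.0192). The morpholinos block translation, so that these transcript levels do not measure the knockdown. The 6 called lower at 75%E were *her3*, *hesx1*, *zic1*, *six3a*, *neurog1* and *otx2a*, and *her3*, a Hes-family repressor, had 16.4 and 16.6 in QKD embryos against 411 and 651 in WT embryos. The summed signal at 75%E was 17584 to 18416 in QKD embryos and 10651 to 11230.4 in WT embryos over all 12, and 3975 to 4451 in QKD embryos and 5458 to 5639 in WT embryos without *sox2*, *sox3* and *sox19a*. The summed signal of 8 yolk syncytial layer markers overlapped at 30%E, with 6453 to 7731 in QKD embryos and 7045 to 7710 in WT embryos. It was 17762 to 18211 in QKD embryos and 18548 to 18754 in WT embryos at 75%E. At TB it was 21471 to 21851 in QKD embryos and 23108.5 to 23360 in WT embryos. These sums are mostly *apoeb* at 30%E (4848 to 5679 in QKD embryos, 5000 to 5396 in WT embryos) and *apoeb* and *afp4* later. They therefore say little about the other markers. At each stage, 1 of these markers was called lower. It was *slc26a1* at 30%E (2.46-fold, adjusted p = 0.00227), *apoa1a* at 75%E (1.53-fold, 0.0421) and *apoba* at TB (1.79-fold, 0.0403). With the block, 3, 1 and 1 were called lower and 0, 0 and 1 higher. Of 8 mesoderm markers, 2 were called lower at 30%E, 2 higher at 75%E and 1 higher at TB, and of 7 endoderm markers, 2 were called lower and 1 higher at 30%E and 1 lower at each later stage. With the block, the mesoderm counts were 2, 1 and 0 lower and 0, 3 and 3 higher. The endoderm counts were then 2, 2 and 1 lower and 1, 0 and 0 higher. Of 12 p53 and stress markers, 1 was called lower at 30%E, 3 higher at 75%E and 4 higher at TB. With the block, 1, 0 and 0 were called lower and 0, 5 and 5 higher. The 4 at TB without the block were *phlda3* (1.89-fold), *bbc3* (1.52-fold), *ccng1* (1.51-fold) and *mdm2* (1.49-fold), the last named after its values were seen.

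Over the 12 arrays, the signals of the 4 keratin genes followed one another with Pearson correlations of 0.979 to 0.996, and those of *tagln2* and *pfn1* with 0.927. These correlations describe 12 arrays that share stage and knockdown and carry no test. By the same measure the gene most like both *krt4* and *krt5* was *krt99* (0.998 each), and that most like *krt18a.1* was *ak3* (0.994). For *krt8*, *anxa1a* (0.997) followed a gene known by a clone name alone. The gene most like *aqp3a* was *rgcc* (0.972), and that most like *atp1b1a*, by its brighter probe set, was *naca* (0.985). For *abca12* it was *rbm4.1* (0.979). For *tagln2* it was *med31* (0.960), which in QKD embryos was at 0.908, 0.813 and 0.820 times its WT level at 30%E, 75%E and TB. For *pfn1* it was *crabp2b* (0.983), which in QKD embryos was at 0.176, 0.123 and 0.239 times its WT level at 30%E, 75%E and TB.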

How the data were processed

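The authors deposited RMA values as linear intensity for 12 Affymetrix arrays. The RMA version, and which arrays were processed together, are not given in the sources used here. Values were put on the log2 scale, and 15502 probe sets were tested after dropping 115 controls. Of these 10795 had 1 gene symbol, 135 several and 4572 none. R 4.3.3 with limma 3.58.1 fitted 6 group means (6 residual, 5.11 prior degrees of freedom), with Benjamini-Hochberg adjustment per contrast. Python 3.11.15, numpy 2.4.6 and pandas 2.3.3 handled tables. The fit without the replicate block was run on simulated arrays with independent noise. These lack the shared deviation of same-numbered arrays, so that run does not bear on that deviation or on the block. Having 2 arrays per group limits the precision. P-values rest on the spread between arrays of a group, pooled over the 6 groups and moderated by limma. The methods call the samples independent, but same-numbered arrays of a stage deviated together, which the fit without the replicate block ignores. The block adds a term for each stage, which leaves it fewer residual degrees of freedom.

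The members and lists were chosen with earlier results of these data known. By the naming rule, all members were named, the 3 most correlated probe sets of each could be, as could up to 3 called genes per list and stage with the largest change. The text gives the most correlated gene and says where another gene was chosen after its values were seen. For other genes with several probe sets, the brightest was used. Same-numbered arrays of a stage correlated at 0.443 to 0.615, and groups of different stages at -0.0835 to 0.183, so that numbers in the labels were paired within a stage. The labels themselves state no pairing. Alternatives were median centring, a second quantile normalization, dropping probe sets under the 40th percentile, a variance trend, a fit per stage, the replicate block, other thresholds, 1 probe set a gene, and each array left out.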

Additional observations from a re-analysis of the deposited data

Results flagged for a closer look

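The QKD difference of *atp1b1a* itself differed between stages, by a test of the difference of the 2 differences in limma. From 30%E to 75%E the change was 1.32 in log2 on the brighter probe set and 1.30 on the dimmer one, and from 30%E to TB it was 1.50 and 1.41. With each array left out, the change from 30%E to TB lay between 1.19 and 1.80 on the brighter probe set and between 1.10 and 1.71 on the dimmer one. The call of the brighter probe set held in all 12 fits for both changes, whereas that of the dimmer one was lost in 5 fits for the change to 75%E (adjusted p up to 0.123) and in 5 for the change to TB (up to 0.0794). Both probe sets read the same 12 RNA samples and are not independent of each other. With 2 arrays per group, single arrays were not tested as outliers.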

How the results depend on the processing

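Of the 10 probe sets, the number called between QKD and WT was 9, 5 and 5 at 30%E, 75%E and TB with the replicate block within each stage, against 5, 3 and 2 without it. It was 1 at 75%E and 1 at TB at an adjusted p under 0.01. With 1 array left out it lay between 4 and 8 at 30%E, between 1 and 4 at 75%E and between 1 and 3 at TB. For all probe sets the counts of calls at 30%E, 75%E and TB were 2210.0, 2622 and 2109 with the block, 652, 597 and 486 at an adjusted p under 0.01, and 273, 291 and 263 for a ratio of mean signals over 2. They were 584 at 75%E with a fit per stage. With 1 array left out they lay between 579 and 1456, between 615 and 1205, and between 536 and 1162.

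Apart from the block, the counts in this paragraph have no share over all probe sets beside them, so they show only how the calls moved. For the course from 75%E to TB, 1 probe set was called in WT embryos and 0 in QKD embryos at an adjusted p under 0.01, and 1 and 0 by the ratio over 2. With 1 array left out the count was 0 to 3 in WT embryos and 0 to 2 in QKD embryos. The change of the QKD difference from 30%E to 75%E was called for 0 probe sets at 0.01, 6 with the block, 1 with 1 probe set a gene, and 1 to 4 with an array left out. From 30%E to TB these counts were 1, 6, 1 and 1 to 4.

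Calls of single genes also moved. At 30%E, *krt5* was lost with a fit per stage (adjusted p = 0.192) and a second quantile normalization (0.0522), *tagln2* was gained with a fit per stage (0.005), and *krt18a.1* was gained with median centring (0.0333), dim probe sets dropped (0.0392) and a variance trend (0.0107). At 75%E, *tagln2* was lost with a fit per stage (0.134) and second quantile normalization (0.0529), and *aqp3a* was gained with that normalization (0.049) and dim probe sets dropped (0.048). At TB, *abca12* was gained with median centring (0.0456) and a fit per stage (0.0325). At an adjusted p under 0.01, *krt5* at 30%E, *abca12* at 75%E and *tagln2* at both later stages were lost.

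Differences near 0 changed sign. *krt8* at 75%E was -0.0149 after a second quantile normalization. With an array left out, *abca12* at 30%E ranged from -0.0618 to 0.456, *krt18a.1* at 75%E from -0.0257 to 0.0907, *krt4* at 75%E from -0.0129 to 0.111 and *krt4* at TB from -0.0169 to 0.0595. Of the 10 names of probe sets none marks a match to several transcripts, so that setting changed nothing. The 2 arrays per group limit every value.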
